A study of Homo sapiens with 16 samples.

Results

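The replication-dependent histone genes of chromosome 6 are the 49 protein-coding genes of the GENCODE v44lift37 annotation (hg19) that lie between positions 26000000 and 28000000 and whose symbols begin with H1-, H2AC, H2BC, H3C or H4C. They were 49 of 20163 protein-coding genes, and the rule used position and name and no measured value, although the set was proposed with earlier results of these data known. Among them were 6 genes for the linker histone H1, 11 for H2A, 12 for H2B, 10 for H3 and 10 for H4. Each gene was described by its start window, the 2001 bp centred on its transcription start. H3K27me3 and H3K4me1, methyl marks on histone H3, had been mapped by CUT&Tag in BE2C, a human neuroblastoma cell line with MYCN amplification. In a first experiment the cells carried a control siRNA (siCtrl) or siRNA #33 against KDM6B, an H3K27 demethylase (siKDM6B33), and in a second they received DMSO at 0.1% or GSK-J4 at 2.5 µM, which inhibits the KDM6 demethylases, all for 72 hours. Each mark and treatment had 2 libraries, 16 in all. A single line, a single siRNA and a single dose limit these groups as models, and the region lists carry no measure of KDM6B itself.

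Replication-dependent histone genes supply the bulk of the histones that package newly copied DNA, and are transcribed mainly in S phase. Most lie in clusters, often as divergent H2A and H2B gene pairs that share a promoter. Their transcripts usually end in a conserved stem-loop in place of a poly(A) tail. H3K4me1 is a mark of enhancers and of the flanks of active promoters, and H3K27me3 marks genes silenced by Polycomb.

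The stem-loop, which the choice of genes did not use, was searched in the last 100 bases of each reference transcript and 30 bases beyond, on the transcribed strand. All 49 members held a match of 16 bases, against 67 of the 20163 genes (0.332%). Of the 18 other genes with a match, 16 carried histone symbols, 1 was HIST1H4B and 1 was ENSG00000282988, whose start is that of H2AC7. These are the 4 forms found at more than 1 member, all in capitals because the whole match is the shared element.
Members of H1, H2A, H2B and H3 (28): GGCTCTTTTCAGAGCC
Members of H4 (7, among them H4C1, H4C4 and H4C7): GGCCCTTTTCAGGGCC
H1-1, H1-6, H2BC4, H2BC5, H3C8, H2BC11 and H2BC12 (7): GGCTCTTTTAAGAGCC
H4C9 and H4C12 (2): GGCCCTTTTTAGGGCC

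The members fell into 3 groups along the chromosome. The first held 28 members with starts from 26018015 to 26285762, the second 5 members from 27100574 to 27114885, and the third 16 members from 27775707 to 27861203. Of the members, 16 formed 8 divergent pairs of neighbours whose starts lay 194 to 979 bp apart, and 29 had a start window that overlapped another, so the 49 windows made up 34 separate stretches. A region call at a shared promoter therefore counts for more than 1 gene.

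Promoter sequences are shown for members that stand at the ends of the H3K4me1 results below. H2BC12-H2AC12 (chr6:27114634-27114885, plus strand) is a pair that had H3K4me1 islands only in the knockdown libraries. H2AC14-H2BC14 (chr6:27782555-27782800, plus strand) and H2BC4-H2AC6 (chr6:26124154-26124400, plus strand) are pairs called in every library but those with GSK-J4. Each of these runs from one start to the other. H1-4 (chr6:26156307-26156557, plus strand) gained islands in the knockdown and H1-2 (chr6:26056698-26056948, minus strand) had them throughout the knockdown experiment. H1-6 (chr6:26108363-26108613, minus strand), H1-1 (chr6:26018015-26018265, minus strand) and H4C7 (chr6:26247224-26247474, minus strand) had an island in none of the 8 H3K4me1 libraries. The 5 single promoters run from 250 bases before the start to the start base, and all sequence is from GRCh37. Capitals mark, on either strand, TATAAA (the TATA box), CCAAT, ATTTGCAT (the octamer), AAACACA (an element known from H1 promoters), and TTTGGCGC and TTTCGCGC (E2F-type words). These words can overlap each other, as TATAAA does with its own reverse complement.
H2BC12-H2AC12: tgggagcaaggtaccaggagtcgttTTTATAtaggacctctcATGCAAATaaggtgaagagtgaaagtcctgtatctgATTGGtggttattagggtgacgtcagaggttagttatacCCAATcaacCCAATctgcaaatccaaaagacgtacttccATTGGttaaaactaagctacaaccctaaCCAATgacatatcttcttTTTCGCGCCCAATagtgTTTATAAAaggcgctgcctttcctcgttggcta
H2AC14-H2BC14: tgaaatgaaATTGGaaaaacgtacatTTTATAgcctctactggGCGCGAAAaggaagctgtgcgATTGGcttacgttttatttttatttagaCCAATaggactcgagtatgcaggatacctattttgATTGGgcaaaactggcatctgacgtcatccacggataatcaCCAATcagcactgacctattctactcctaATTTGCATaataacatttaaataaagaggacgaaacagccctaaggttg
H2BC4-H2AC6: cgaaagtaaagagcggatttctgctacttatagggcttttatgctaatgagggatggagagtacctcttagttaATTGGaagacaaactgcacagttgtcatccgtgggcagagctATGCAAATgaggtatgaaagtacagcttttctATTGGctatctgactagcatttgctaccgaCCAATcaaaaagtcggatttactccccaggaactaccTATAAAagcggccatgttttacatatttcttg
H1-4: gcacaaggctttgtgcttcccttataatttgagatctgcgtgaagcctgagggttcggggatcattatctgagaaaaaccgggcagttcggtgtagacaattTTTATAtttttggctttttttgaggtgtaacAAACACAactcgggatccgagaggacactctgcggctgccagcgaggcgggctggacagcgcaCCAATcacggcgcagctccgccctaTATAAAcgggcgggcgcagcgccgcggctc
H1-2: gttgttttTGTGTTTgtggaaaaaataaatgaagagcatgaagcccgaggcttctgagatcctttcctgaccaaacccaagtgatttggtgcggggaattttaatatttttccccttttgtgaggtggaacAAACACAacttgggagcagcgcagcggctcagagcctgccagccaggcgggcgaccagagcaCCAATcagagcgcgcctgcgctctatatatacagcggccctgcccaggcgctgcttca
H1-6: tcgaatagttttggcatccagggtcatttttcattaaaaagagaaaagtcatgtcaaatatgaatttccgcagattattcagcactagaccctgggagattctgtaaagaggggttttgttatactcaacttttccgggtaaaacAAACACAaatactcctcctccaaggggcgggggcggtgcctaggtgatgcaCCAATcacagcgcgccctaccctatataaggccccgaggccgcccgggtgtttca
H1-1: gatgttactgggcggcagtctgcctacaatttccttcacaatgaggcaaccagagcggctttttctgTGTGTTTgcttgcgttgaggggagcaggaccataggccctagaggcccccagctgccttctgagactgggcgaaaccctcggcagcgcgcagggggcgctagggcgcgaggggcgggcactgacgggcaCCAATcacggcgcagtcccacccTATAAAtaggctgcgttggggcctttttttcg
H4C7: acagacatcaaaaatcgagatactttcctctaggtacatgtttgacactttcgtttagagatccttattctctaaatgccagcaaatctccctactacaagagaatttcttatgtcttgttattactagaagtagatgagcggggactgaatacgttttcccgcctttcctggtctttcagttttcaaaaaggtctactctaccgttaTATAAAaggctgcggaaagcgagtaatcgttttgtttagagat

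Within 250 bases before to 50 after the start, CCAAT was found in 43 of 49 members and 35.9% of all genes. TATAAA was found in 33 members and 9.80% of all genes, and ATTTGCAT in 18 members, 9 of H2A and 9 of H2B, and 1.58% of all genes. AAACACA was found in all 6 H1 genes and in 0 of the other members, beside 4.21% of all genes, so that H1-1 and H1-6, which had no H3K4me1 island, held it as H1-2 and H1-4 did. TTTCGCGC was found in 12 members and 0.714% of all genes, and TTTGGCGC in 0 members and 0.853% of all genes. The median GC content was 42.7% in the members and 63.3% in all genes, with a median of 11 and 23 CpG. The 3 members that had no H3K4me1 island held 11 to 17 CpG and 40.3% to 58.0% GC, inside the range of the other 46 for CpG (3 to 25) and reaching above it for GC (36.3% to 56.0%). These matches describe letters in a window and are not sites of binding.

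Every library had its own list of broad regions (SICER islands) and of narrow MACS2 peaks, called without pooling, and no read counts were used. The lists held 7175 to 24917 islands and 29752 to 131341 narrow peaks, and the genome background implied by the narrow peaks' own fold and p-values, a relative measure of depth, ranged from 0.0298 to 0.107 tags. H3K27me3 after GSK-J4, replicate 1, stood apart, since its islands had a median width of 3000 bp where the other 3 H3K27me3 libraries of that experiment had 6600 to 7400 bp. Of 8 genes that mark adrenergic neuroblastoma cells, an H3K4me1 island lay at the start of 5 and 6 in the siCtrl libraries, 8 in each knockdown library, 5 in each DMSO library and 4 in each GSK-J4 library. HAND2, a defining gene of that list, was without one in 6 of the 8 libraries and carried one in both knockdown libraries. Of 9 markers of other cell types, PTPRC, CD3E, EPCAM and ALB had no island of either mark in any of the 16 libraries, while TWIST1 carried H3K4me1 islands in all 4 libraries of the knockdown experiment, PRRX1 in both knockdown libraries and all 4 of the compound experiment, and MYOD1 in those except GSK-J4 replicate 1. Both had H3K27me3 islands in all 8 libraries of that mark. TH and DBH, further adrenergic genes, carried H3K27me3 islands in all 4 libraries of the compound experiment. In the knockdown experiment DBH had 0% covered in both siCtrl libraries and 100% and 95.8% after knockdown, and TH had 87.8% in knockdown replicate 1 alone. Methyl marks at a start are only an indirect check of the cell type.

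The first question was whether loss or inhibition of an H3K27 demethylase leaves H3K27me3 at these genes. H3K27me3 islands overlapped the start windows of 0 of 49 members in each of the 8 H3K27me3 libraries, where 14.2% to 21.0% of all start windows were called. The nearest H3K27me3 island lay 29516 to 99516 bp from the closest member start in 7 of the libraries, and 3724 bp in GSK-J4 replicate 1, where 3 members had an island within 5000 bp. The 2 Mb around the genes were not without the mark, since 0.620% to 7.74% of them lay in H3K27me3 islands, which covered the starts of PRSS16 and POM121L2 in all 8 libraries.

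A window was called gained when both treated libraries and neither control had a region there, and lost in the opposite case. By islands, 0 members were gained and 0 lost after knockdown, where 1.27% of all start windows were gained and 0.417% lost. With GSK-J4 0 members were gained and 0 lost, where 0.803% of all windows were gained and 0.134% lost. All 4 groups stood at 0 (exact permutation p = 1 in both comparisons).

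Narrow H3K27me3 peaks were few at the members and small. A peak lay in 2 member windows in each siCtrl library and in 7 and 6 in the knockdown libraries, beside 21.1% and 21.0% and then 24.9% and 25.4% of all start windows. The knockdown libraries lay above both controls by 4.5 windows, with SDs of 0 and 0.707 (n = 2 each), and the exact two-sided permutation p was 0.33, the smallest that 2 libraries against 2 allow. With the lists limited to the shortest of the comparison the difference was 0 (exact permutation p = 1), as it was with peaks of −log10 q of at least 5. The DMSO libraries had a peak at 9 and 7 members and the GSK-J4 libraries at 15 and 7, so the groups overlapped (exact permutation p = 1). Of all windows 21.5% and 23.4% and then 31.2% and 23.8% had one, so that the 15 members (30.6%) of GSK-J4 replicate 1 lay at that library's own share, and without GSK-J4 replicate 1 the difference was −1. The peaks at members after knockdown had 2 or 3 tags at the summit, and the highest of all 8 libraries had 5, at H4C1 in GSK-J4 replicate 1.

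By narrow H3K27me3 peaks, 2 of 49 members were gained after knockdown, H2BC11 and H2AC11, which share 1 peak in each knockdown library, and 0 were lost. Among all windows 2.49% were gained and 0.883% lost. The peak over this pair had 2 tags in knockdown replicate 1 and 3 in replicate 2. The summits lay at −272 and −39 bp from the start of H2BC11, so the 2 libraries did not call the same place. The pair also carried a peak of 3 tags in DMSO replicate 1 and of 3 and 2 tags with GSK-J4. With GSK-J4 0 members were gained, beside 3.03% of all windows, and 1 was lost, H4C13, beside 1.07%.

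**Figure D1:**
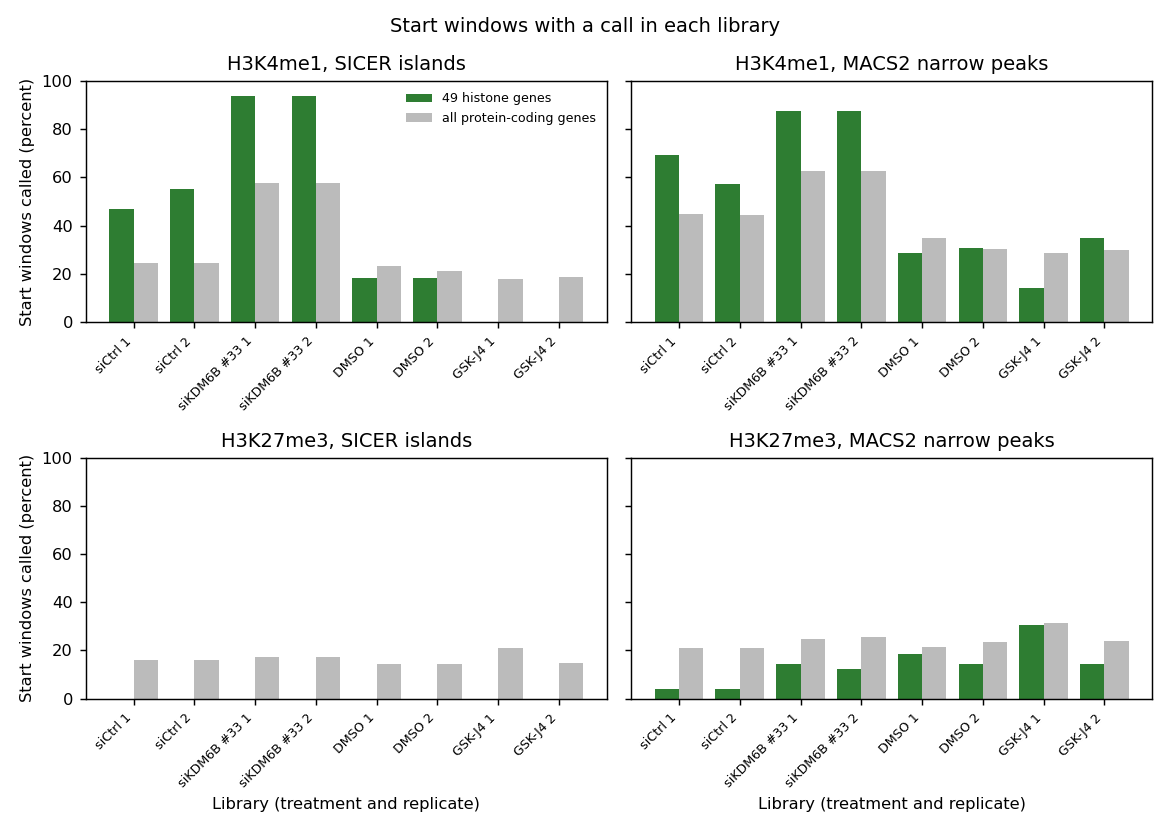
Percent of start windows with a SICER island (left) or a MACS2 narrow peak (right) in each library, for H3K4me1 (top) and H3K27me3 (bottom). Green bars are the 49 histone genes and grey bars all 20163 protein-coding genes. H3K4me1 islands reach 93.9% of the histone genes in both knockdown libraries and none with GSK-J4, and H3K27me3 islands reach none in any library.

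H3K4me1 islands were common at the members. They overlapped 23 and 27 of the 49 member windows with siCtrl and 46 in each of the knockdown libraries. The increase of 21 windows exceeded the SD of 2.83 between the controls and of 0 between the knockdown libraries (n = 2 each, exact two-sided permutation p = 0.33, the smallest possible). All start windows moved the same way, from 24.3% and 24.7% to 57.5% in both knockdown libraries, beside 46.9% and 55.1% and then 93.9% of the members. The mean percent of a member window covered was 41.3 and 46.5 with siCtrl and 88.5 and 88.7 after knockdown, a difference of 44.7 percentage points (SD 3.71 and 0.118, n = 2 each, exact permutation p = 0.33). Over all windows it was 21.0 in both siCtrl libraries and 52.0 and 51.9 after knockdown. The genome background was 0.0902 and 0.0849 tags in the siCtrl libraries, below the 0.107 and 0.105 of the knockdown libraries, and the part of depth in these differences was not tested.

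Of the members, 18 (36.7%) were gained after knockdown, beside 30.3% of all windows, a share near the background. None was lost, beside 0.665%. A further 22 members (44.9%) had an island in all 4 libraries, beside 21.0% of all windows, and 3 (6.12%) in none, beside 39.8%. The remaining 6 had one in 1 siCtrl library and both knockdown libraries. Of the 21 members without an island in either siCtrl library, 18 (85.7%) had one in both knockdown libraries, where this held for 6118 of 14731 windows (41.5%) in the genome. The 18 members are not 18 separate events: their windows form 13 stretches, and 11 islands in each knockdown library covered them. When the islands of each library were limited, by score, to the covered length of the shortest list, the increase was 22 windows.

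**Figure D2:**
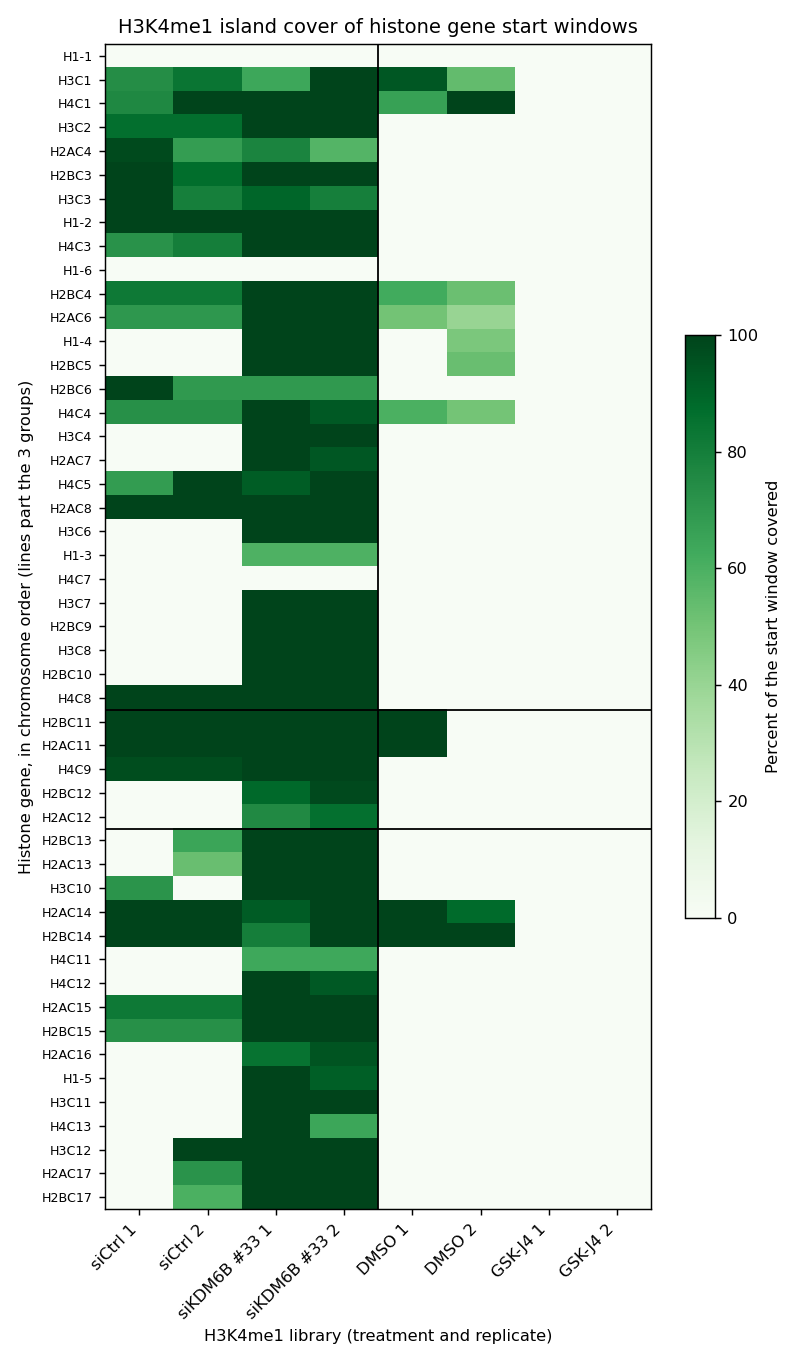
Percent of each histone gene's start window covered by H3K4me1 islands (colour, 0 to 100) in the 8 H3K4me1 libraries (columns) for the 49 members in chromosome order (rows). The horizontal lines part the 3 groups of members and the vertical line the knockdown experiment from the compound experiment. All rows except H1-1, H1-6 and H4C7 are covered after knockdown, and all rows are empty with GSK-J4.

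The largest changes in cover were complete ones. H1-4 (a linker histone gene, ENSG00000168298.7_6), H2BC5, H3C4, H3C6, H3C7, H2BC9, H3C8 and H2BC10 were covered over 0% of the window in both siCtrl libraries and 100% in both knockdown libraries. These 8 lay in the first group on the chromosome, and came first among equals by position (H3C11, in the third group, changed likewise). The other gained members, which include H2AC7, H1-3, H2BC12, H2AC12, H4C11, H4C12, H2AC16, H1-5 and H4C13, were covered over 59.3% to 100% after knockdown. H1-3 was covered over 59.3% in each knockdown library and H4C11 over 63.5% in each. In the pair of H2BC12 and H2AC12, whose shared promoter is shown above, H2BC12 was covered over 88.3% and 98.3% and H2AC12 over 75.8% and 85.8%.

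H2A, H2B and H3 members were reached completely, and H4 and linker members with exceptions. After knockdown all 11 H2A, all 12 H2B and all 10 H3 members had an island in both libraries, as did 9 of 10 H4 members and 4 of 6 H1 members. With siCtrl the counts were 6 and 8 of 11 for H2A, 6 and 8 of 12 for H2B, 4 and 4 of 10 for H3, 6 and 6 of 10 for H4, and 1 and 1 of 6 for H1. The members gained were 3 of H1, 3 of H2A, 4 of H2B, 5 of H3 and 3 of H4. No class was tested against another.

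In each class, the member with the highest and the lowest mean H3K4me1 cover over the 8 libraries marks the range. H1-2 led the H1 genes, with 100% in all 4 libraries of the knockdown experiment and 0% in all 4 of the compound experiment. H2AC14 and H2BC14, a divergent pair, led H2A and H2B, with 100% of both windows in both siCtrl libraries. In the knockdown libraries H2AC14 had 92.3% and 100% and H2BC14 80.0% and 100%. H3C1 led H3, covered over 73.9% and 83.9% in the siCtrl libraries and over 63.9% and 100% in the knockdown libraries. H4C1 led H4, with 76.2% and 100% and then 100% in both. At the low end stood H2AC12, H2BC12 and H3C4 (tied with others of H3), each uncovered outside the knockdown libraries.

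H1-1 (ENSG00000124610.5_7), H1-6 (the testis-specific H1 gene, ENSG00000187475.6_7) and H4C7 (ENSG00000275663.2_7) had 0% in all 8 H3K4me1 libraries and no narrow H3K4me1 peak in the knockdown experiment. The neighbour of H1-1, H3C1, was called in 6 of the 8 libraries. H2AC1 and H2BC1, the other testis-specific genes of the family, lie on chromosome 6 before the interval and were listed in no island of either mark in the 16 libraries.

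All 3 groups along the chromosome took part. In the third, 5 and 9 of 16 members had an island in the siCtrl libraries and 16 in each knockdown library. In the first group the counts were 15 and 15 of 28 and then 25 in each, and in the second 3 and 3 of 5 and then 5 in each. The mean cover in the siCtrl libraries was 46.4% and 45.7% in the first group and 59.4% in both for the second. In the third it was 26.7% in replicate 1 and 43.99% in replicate 2, so that its distance from the first group rested on replicate 1. After knockdown the means of the 3 groups lay between 84.0% and 96.8%.

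The islands over members were also wider after knockdown. The members were covered by 15 and 16 islands with siCtrl, with a median width of 3200 and 3600 bp, and by 26 and 27 after knockdown, with a median width of 6100 and 5800 bp. The median of all islands was 3600 and 3400 bp with siCtrl and 3600 bp in both knockdown libraries. The widest island over members was 6400 and 6200 bp with siCtrl and 12800 and 12400 bp after knockdown. By score, the median island over members stood at the 23.0 and 24.8 percentile of the siCtrl lists and, over other and more islands, at the 69.6 and 69.7 percentile of the longer knockdown lists, which gives no test of a change. In the whole 2 Mb interval H3K4me1 islands covered 66.6 and 72.2 kb with siCtrl and 258 and 263 kb after knockdown. Over the genome they covered 103 and 98.6 Mb and then 115 and 114 Mb.

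Around the starts the cover formed a broad plateau. At the start itself an island was present in 46.9% and 55.1% of members with siCtrl and in 93.9% in both knockdown libraries, beside 23.3% and 23.6% and then 56.6% and 56.7% of all genes. At 2000 bp downstream it was present in 18.4% and 24.5% of members and then in 69.4% in both, and at 2000 bp upstream in 16.3% and 22.4% and then 51.0% and 57.1%. All genes stood at 9.93% and 9.59% and then 18.8% and 18.7% upstream, and at 13.0% and 12.5% downstream with siCtrl and at 36.2% and 36.0% after knockdown. Since many members lie within a few kb of each other, the flanks of one start often held the next gene.

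**Figure D3:**
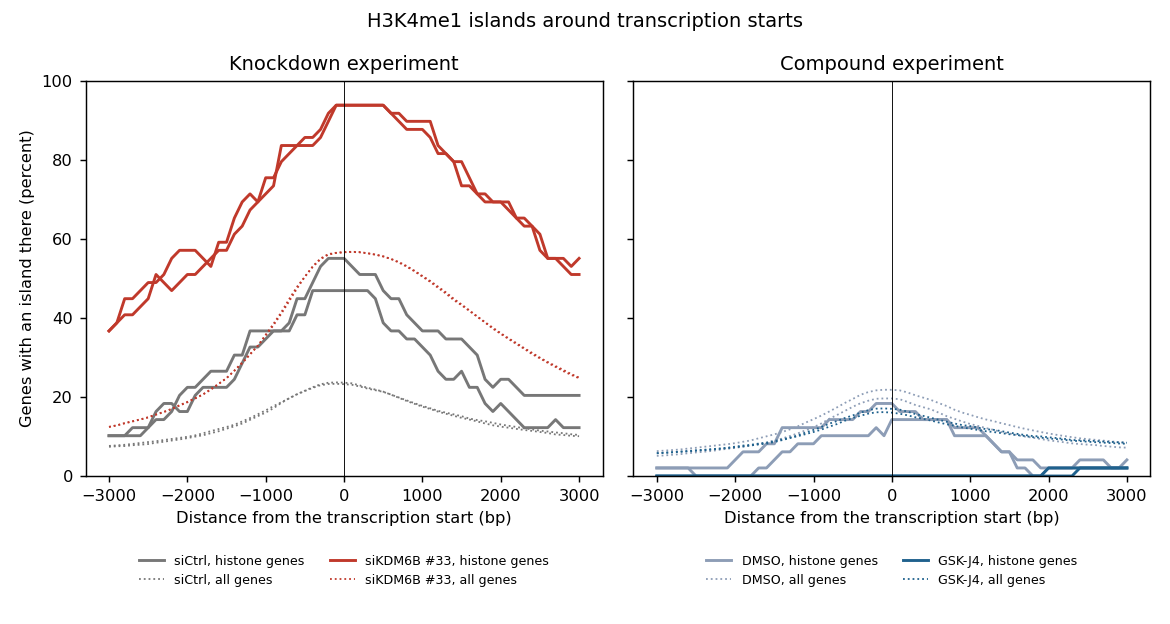
Percent of genes with an H3K4me1 island at each distance from the transcription start (bp, in the direction of transcription), with 1 line per library, solid for the 49 histone genes and dotted for all protein-coding genes. The knockdown lines reach 93.9% of histone genes at the start, above the siCtrl lines at 46.9% and 55.1%, and the GSK-J4 lines of the histone genes lie at 0 there.

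Narrow H3K4me1 peaks, called by another program, went the same way. They lay in 34 and 28 member windows with siCtrl and in 43 in each knockdown library, a difference of 12 (SD 4.24 and 0, n = 2 each, exact permutation p = 0.33), beside 44.7% and 44.2% and then 62.8% and 62.5% of all windows. The number of peaks in the windows, with those in overlapping windows counted for each, was 58 and 42 and then 133 and 148. By narrow peaks 7 members were gained, H3C4, H1-3, H2BC9, H2AC13, H3C10, H4C11 and H3C12, beside 11.1% of all windows. With peaks of −log10 q of at least 5 in place of the deposited threshold, 22 members were gained, beside 25.5% of all windows.

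One member was lost by narrow peaks after knockdown, beside 0.675% of all windows. This was H2AC4, an H2A gene, whose strongest peak had 5 and 3 tags with siCtrl, and which had no narrow peak after knockdown although an island still covered 77.7% and 57.7% of its window. H2AC17 and H2BC17 were covered by islands over 100% of both windows after knockdown, with no narrow peak in any of the 4 libraries.

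The height of the strongest narrow peak was also compared. It was taken as the number of tags at the summit that the deposited fold enrichment and p-value imply together, and as 0 where no peak was listed, so that it depends in part on the calls. The median over the 49 members was 4 and 3 tags in the siCtrl libraries and 16 and 15 in the knockdown libraries. Relative to the genome background of each library this was 44.4 and 35.3 and then 150 and 143 times. Both knockdown libraries lay above both siCtrl libraries in 42 of 49 members (85.7%) and below them in 1, H2AC4, beside 56.3% and 1.66% of the 20065 windows in the genome whose summits could be solved in all 4 libraries. Of the 24 members with a narrow peak in all 4 libraries, where no 0 enters, 23 lay above, beside 91.6% of such windows in the genome. The 42 included 20 of the 22 members whose islands were present in all 4 libraries, at which the median was 9 and 7.5 tags with siCtrl and 19.5 and 16.5 after knockdown. A peak of at least 10 tags stood in 9 and 5 members and then in 38 and 38, beside 10.9% and 10.3% and then 45.2% and 44.04% of all windows.

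The highest summits after knockdown were at H2BC11 and H2AC11, the divergent pair of the second group, with 46 and 39 tags at a peak they share, with its summit between their starts. The strongest peak of the pair in each siCtrl library had 10 tags, in replicate 1 at another place, on the H2BC11 side of the pair. H4C1 had 13 and 10 tags and then 33 and 27. H1-4 had 4 and 3 and then 20 and 22, the 4 at another place in its window than the rest. H2BC12 and H2AC12 had 5 tags in siCtrl replicate 1 and no peak in replicate 2, and then 20 and 17. H2BC6 was an exception, with 15 and 9 tags and then 12 and 11, so that its groups overlapped.

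**Figure D4:**
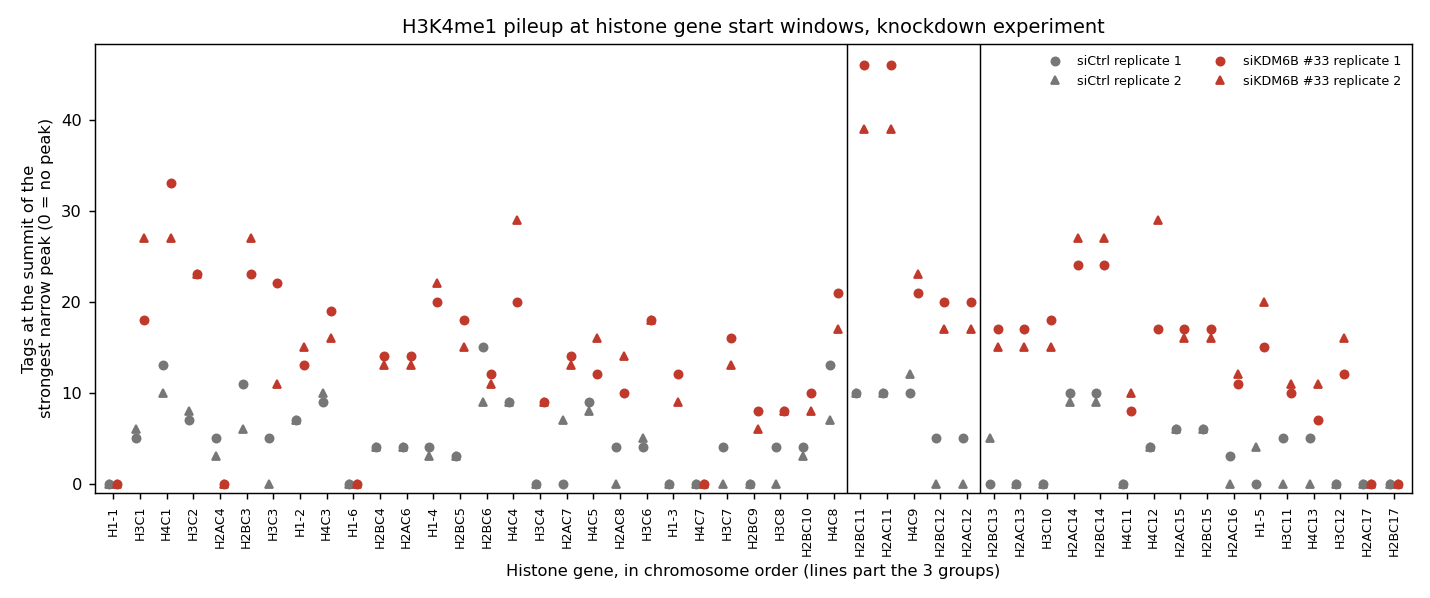
Number of tags at the summit of the strongest narrow H3K4me1 peak in each histone gene's start window in the knockdown experiment (0 where no peak was listed), for each replicate of siCtrl (grey) and siKDM6B #33 (red). In 42 of 49 members, beside 56.3% of the 20065 protein-coding genes with solved summits, both knockdown libraries lie above both siCtrl libraries, and the highest values, 46 and 39 tags, are at H2BC11 and H2AC11.

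The members had no H3K4me1 island after GSK-J4. An island lay in 9 member windows in each DMSO library and in 0 in each GSK-J4 library, a difference of −9 (SD 0 in both groups, n = 2 each, exact permutation p = 0.33, the smallest possible). All windows moved from 23.2% and 21.1% to 17.8% and 18.6%. The mean cover of the members was 14.9% and 11.9% with DMSO and 0% in both GSK-J4 libraries, a difference of −13.4 percentage points (SD 2.14 and 0, exact permutation p = 0.33), and over all windows 19.0% and 16.8% and then 14.2% and 14.9%. The DMSO libraries stood far below siCtrl at the members, with 18.4% of member windows called against 46.9% and 55.1%, but close to it over all windows. Levels of the 2 experiments were not tested against each other.

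Of the members, 7 were lost (14.3%), beside 2.25% of all windows, and 0 were gained, beside 0.516%. These were all 7 members called in both DMSO libraries, where 454 of 3802 such windows (11.9%) were lost in the genome. The 7 were H3C1, H4C1, H2BC4, H2AC6, H4C4, H2AC14 and H2BC14, in 4 separate stretches with 4 islands in each DMSO library. H2AC14 was covered over 100% and 87.7% with DMSO, and H2BC14 over 100% in replicate 1 and just short of that in replicate 2. H4C1 was covered over 66.2% and 100%, H3C1 over 93.9% and 53.9%, and H4C4 over 60.0% and 50.0%. H2BC4 had 62.3% and 52.3% and H2AC6 50.0% and 40.0%.

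The islands over members with DMSO had low scores at the median, and those behind the 7 lost members were not ranked apart. The 5 islands over members in each DMSO library stood, by their median score, at the 16.4 and 5.69 percentile of the library and were 2400 and 1800 bp wide at the median. When the lists were limited, by score, to the covered length of the shortest of the comparison, 1 member was lost in place of 7, beside 2.84% of all windows, and the difference in windows called was −5.

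Narrow peaks gave overlapping groups. The DMSO libraries had them in 14 and 15 member windows and the GSK-J4 libraries in 7 and 17 (exact permutation p = 1), beside 34.9% and 30.2% and then 28.5% and 29.7% of all windows. Without GSK-J4 replicate 1 the difference was 2.5 in place of −2.5. With lists limited to the shortest it was −9, and with −log10 q of at least 5 it was −3.5, each with the groups apart (exact permutation p = 0.33). By narrow peaks 2 members were lost, H4C1 and H4C12, beside 2.87% of all windows, and 0 were gained, beside 1.65%. H4C8 alone, 1 of 49 members (2.04%), had a peak in all 4 libraries, beside 11.9% of all windows. By summit tags both GSK-J4 libraries lay below both DMSO libraries in 7 members, beside 7.66% of all solved windows, and above them in 0, beside 3.21%. The summits were low, with 17 tags at H4C4 in DMSO replicate 1 the highest of the 4 libraries, 7 tags in DMSO replicate 2, and 3 and 4 tags the highest with GSK-J4.

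HIST1H4B, an H4 gene of the same cluster (26027124 to 26027480), carries an older symbol in the annotation and was not a member, and it differed from the members. H3K4me1 islands covered 100% of its window in all 8 libraries, GSK-J4 included, with widths of 5000 and 5200 bp with siCtrl, 9600 and 9000 bp after knockdown, 5600 and 4600 bp with DMSO and 4400 and 4800 bp with GSK-J4. Its strongest peak had 12 and 13 tags with siCtrl and 26 in both knockdown libraries. An H3K27me3 island covered 86.0% of its window in GSK-J4 replicate 1, the library that stood apart, and in no other library. The counts of 0 above therefore hold for the 49 members and not for every histone gene of the cluster.

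Of the 18 other protein-coding genes of the interval, HIST1H4B among them, 2 had an H3K4me1 island in each siCtrl library and 6 and 8 in the knockdown libraries, with 4 gained (ENSG00000282988, BTN3A2, BTN2A1 and ZNF184) and 0 lost, beside 30.3% and 0.665% of all windows. The window of ENSG00000282988 is that of the member H2AC7, so this gain is the same one. Each DMSO library had one at 2 of them and each GSK-J4 library at 1, and HMGN4, a nucleosome-binding protein gene, was lost. The 13 genes with replication-dependent symbols outside the interval had few calls, with 2 and 2 islands and then 3 and 3. H4C16 on chromosome 12 was gained, with 66.8% covered in both knockdown libraries, and H2AC25 and H2BC26 were called in all 4 libraries. The 10 on chromosome 1 between 149783925 and 149859515 were without an H3K4me1 island in all 8 libraries, and how well reads map there was not tested. Among 16 genes for replacement histones and other variants, 3 and 5 were called and then 11 and 11, with H1-10, MACROH2A1, MACROH2A2, H2AJ and CENPA gained.

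The factors that serve these genes were also described. Of 15 factors of histone gene expression, 7 and 6 had an H3K4me1 island at the start with siCtrl and 12 and 13 after knockdown. GON4L, CDK2, ZNF473, LSM11 and CASP8AP2 were gained, of which LSM11 and ZNF473 act in 3′ end processing of histone transcripts and CASP8AP2 (FLASH) in the same and in transcription. NPAT, the coactivator that links cyclin E and CDK2 to histone genes, was covered over 91.8% and 40.0% with siCtrl and 100% after knockdown, and over 0% in the 4 other libraries. POU2F1, which binds the octamer, was covered over 96.1% and 86.1% with DMSO and 0% with GSK-J4, and was the 1 factor lost. Of 7 histone chaperones, 1 and 1 were called with siCtrl and 5 and 5 after knockdown, with NASP, CHAF1A, HIRA and ASF1A gained, and 1 in each library of the compound experiment. These 5 of 15 factors and 4 of 7 chaperones stand beside the 30.3% of all windows that were gained, and neither list was tested.

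Reads from near-identical genes can limit these values, since only uniquely mapped fragments were kept. A median of 0% of the 50-base stretches of a member window recurred in another place among the member windows, and the share was above 10% in 6 members. These were H4C11 and H4C12 with 21.1%, H2BC13 and H2AC13 with 19.2%, and H2AC14 and H2BC14 with 16.8%. H1-1, H1-6 and H4C7 had 0%. Sequence outside the member windows was not searched, so how uniquely reads map at these starts was not tested.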

How the data were processed

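CUT&Tag libraries of 2 marks in 8 groups of 2 biological replicates were used. Per the labels and the study's methods, the authors trimmed reads with Trim Galore 0.4.4, aligned them to hg19 with BWA 0.7.12, removed duplicates with Picard 1.65, kept properly paired, uniquely mapped fragments of 150 to 2000 bp with SAMtools 1.3.1, and called regions per library. SICER 1.1 (windows of 200 bp, gaps of 600 bp) gave the deposited islands, whose score sums over windows and grows with depth. MACS2 (2.1.1 in the processing notes) at q 0.05 gave the deposited narrow peaks with their fold enrichment and the −log10 of p and q within the library. Spike-in factors and the authors' differential analysis were not used. Depth can lengthen every list and was not equalised.

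Starts were those of the MANE Select transcript for all 49 members. Windows of 1000 bp each side were called at 1 bp of overlap. Group means were compared by the exact two-sided permutation test, whose smallest p with 2 against 2 libraries is 0.33, so no threshold could be passed. Summit tags were solved from fold and p as (tags + 1)/(background + 1) with a Poisson tail, to within 0.003 on the −log10 p scale, for 98.7% to 99.8% of peaks. The steps were tested on simulated calls and pileups. Members, lists and alternatives were chosen with earlier results of these data known. By rule, named members were all those gained or lost by islands up to 8 a comparison (largest difference of cover, then position). Those of highest and lowest mean H3K4me1 cover in each class and the testis-specific genes were also named. Members were also counted by class, position and narrow peaks. The other members gained by islands after knockdown, and those gained or lost by narrow peaks, were named beyond this rule. H2AC4, H2AC17, H2BC17, H2BC6, H2BC11, H2AC11, H4C8 and HIST1H4B were named after their values were seen. Python 3.11.15, pandas 2.3.3 and SciPy 1.17.1 were used.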

Additional observations from a re-analysis of the deposited data

Results flagged for a closer look

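H3K4me1 islands at the members moved in opposite directions in the 2 experiments, with every treated library on its own side of both controls. The mean number of member windows with an island differed from the controls by 21 in the knockdown libraries and by −9 in the GSK-J4 libraries, and the mean percent covered by 44.7 and −13.4 percentage points. All start windows moved the same 2 ways, from 24.3% and 24.7% with an island to 57.5% in both knockdown libraries, and from 23.2% and 21.1% to 17.8% and 18.6% with GSK-J4. Narrow H3K4me1 peaks at the members overlapped between DMSO (14 and 15 members) and GSK-J4 (7 and 17), while summit tags were below both DMSO libraries in 7 members and above in 0, beside 7.66% and 3.21% of all solved windows. The difference between the 2 contrasts was not tested, and the 2 measures rest on the same islands.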

How the results depend on the processing

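Over 28 results and 260 alternative values, 224 kept the direction, stayed at 0 or lay within 1.5 times the reported count, 33 moved beyond that or to 0, and 3 differences reversed. The difference in members with narrow H3K27me3 peaks after knockdown, 4.5, was 0 with lists limited to the shortest and 0 with −log10 q of at least 5, and that with GSK-J4, 3, was 0 with −log10 q of at least 5. The increase in member windows with H3K4me1 islands after knockdown ranged from 14 (overlapping windows merged) to 23 (without siCtrl replicate 2), and the decrease with GSK-J4 from −9.5 (2 kb each side) to −5 (windows merged, or lists limited to the shortest). H3K27me3 islands stayed at 0 of 49 members throughout. The reversed differences were members with narrow H3K27me3 peaks with GSK-J4 (−6 with lists limited to the shortest, and −1 without GSK-J4 replicate 1, where leaving out 1 library gave −1 to 7) and narrow H3K4me1 peaks with GSK-J4 (2.5 without GSK-J4 replicate 1, where leaving out 1 library gave −7.5 to 2.5, and −9 with lists limited to the shortest).

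With overlapping windows merged, H3K27me3 narrow peaks gained 1 after knockdown, H3K4me1 narrow peaks gained 4 and lost 0, and H3K4me1 islands lost 4 with GSK-J4. With lists limited to the shortest, these were 0 gained for H3K27me3 after knockdown, 2 lost for H3K27me3 with GSK-J4, 1 lost by H3K4me1 islands and 4 by H3K4me1 narrow peaks with GSK-J4. With −log10 q of at least 5, H3K27me3 narrow peaks gained 0 after knockdown and lost 0 with GSK-J4, and H3K4me1 narrow peaks gained 22 and lost 0 after knockdown. With 2 kb each side, H3K27me3 narrow peaks with GSK-J4 lost 2 and H3K4me1 narrow peaks after knockdown lost 0. Leaving out 1 library, narrow peak counts ranged from 2 to 6 gained and 0 to 2 lost for H3K27me3 after knockdown, 0 to 6 gained and 1 to 3 lost with GSK-J4, 7 to 16 gained for H3K4me1 after knockdown (16 without siCtrl replicate 1), and 0 to 6 gained and 3 to 6 lost with GSK-J4. The cause was not tested, other than that merging counts fewer windows and leaving out a library asks for fewer calls. Between control and treated libraries, the differences between replicates correlated at −0.0402 to 0.0141 over all windows. This cannot show whether libraries of the same number were prepared together. With the replicate number as a block, the H3K4me1 difference of 21 had an exact sign-flip p of 0.5, the smallest possible.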
